A study of Mus musculus with 4 samples.

Results

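Axon guidance ligands and receptors were examined in the cerebellum of mice whose astroglia were targeted for loss of Dicer, the enzyme that cuts mature microRNAs from their precursors. The genes were taken by name: semaphorins (Sema), plexins (Plxn) and neuropilins 1 and 2 (Nrp1 and Nrp2), ephrins (Efn) and Eph receptors, Slit1 to Slit3 and the Robo genes, netrins (Ntn) and the Unc5 genes. By that rule 71 of the 28632 gene names on the array were members, with 125 probes. A member was tested where a probe was well above background in the mutant or the control channel of all 4 arrays, which left 63 of the 71 members among 18025 genes tested. A gene was a member by its name alone, whatever its ratio, though the families themselves were picked with earlier results of these data known.

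The study set Dicer mutant mice (mGfap-Cre; Dicer flox/flox) against control littermates (mGfap-Cre; Dicer +/flox), on a mixed strain background, at postnatal day 30. The controls thus carried the same Cre transgene, driven by the mouse Gfap promoter, and 1 floxed Dicer allele. There were 4 biologically independent littermate pairs, each hybridised as mutant against control on 1 two-colour array, with the mutant in Cy5 in pairs 1 and 3 and in Cy3 in pairs 2 and 4. RNA came from cerebellum, so a transcript of any cell type was measured whether or not its cells had expressed Cre.

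Guidance molecules are surface-bound or secreted cues and the receptors that read them. Semaphorins signal through plexins, with neuropilins as co-receptors for the secreted class 3 semaphorins; ephrins bind Eph receptor tyrosine kinases on touching cells; Slits repel through Robo receptors; netrins attract or repel through Dcc and the Unc5 receptors. In the developing cerebellum these systems steer migrating granule cells and growing axons, and in the adult brain many of them are still made by neurons, glia and vessels, where they act at synapses and along blood vessels.

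Neither a rise nor a fall passed the test for any of the 63 guidance genes. A gene was called when its adjusted p was under 0.05 in limma's moderated test with Benjamini-Hochberg adjustment over all genes tested. Of the 63 tested members 0 were called higher, against 0.588% of all genes tested, and 0 were called lower, against 0.444%, or 1.03% in either direction. At an unadjusted p under 0.05 there were 5 members (7.94%), against 9.39% of all genes. Ephb3 and Robo3 were the 2 with higher signal in the mutant, and Plxnb1, Plxnb3 and Efnb3 the 3 with lower signal. The ratio had the same direction in all 4 pairs for 11 members (17.5%), against 15.1% of all genes. Both shares lay near their background.

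Under the main settings the arrays also gave an interval for the mean ratio in cerebellar RNA, for each gene on its own. These intervals are not a joint bound over the 63 members. The offset added in the background correction draws the ratios of dim probes toward 0. For dim members the interval therefore covers the ratio after that offset, and a larger change of the transcript was not excluded. A change confined to some of the cells could have been larger in those cells. The ratios below are log2 of mutant over control, so 1 is a doubling and -1 a halving, and each mean carries the SD over the 4 pairs. The 95% interval of the mean ratio, from the same fit, lay inside a 2-fold change either way for 63 of 63 tested members, against 99% of all genes. It lay inside a 1.5-fold change (0.585 in log2) for 62 of 63, or 98.4%, against 95.6% of all genes, and Efnb2 was the exception. The median size of the mean ratio, without its sign, was 0.06 over the members and 0.06 over all genes tested, and the median SD over pairs was 0.16 and 0.16. Among members 28 of 63 ratios were above 0 (44.4%), against 50.9% of all genes, with a median ratio of -0.018 against 0.0023.

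**Figure D1:**
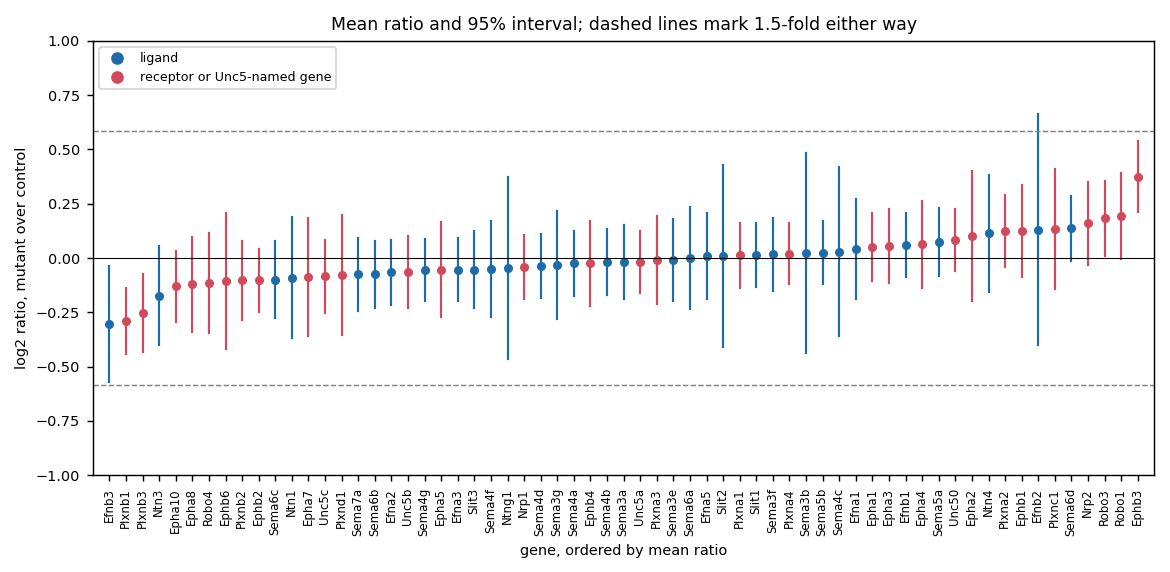
Mean log2 ratio of mutant over control (vertical axis) of the 63 tested guidance genes, ordered by that mean along the horizontal axis, with ligands in blue and receptors and Unc5-named genes in red. Points are means over 4 littermate pairs, bars are 95% intervals of the fit, and dashed lines mark a 1.5-fold change; the bar of Efnb2 alone crosses a dashed line, and Efnb3 (-0.30) and Ephb3 (0.38) lie at the ends, although Plxnb1 was lower than Efnb3 with the mean over probes and without replicate 2 or 3.

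The probes of the genes with the lowest unadjusted p-values are shown by their first bases so that a reader can see which transcript stretch each value rests on. Each is the first 30 of 60 bases, read 5′ to 3′, with the mm9 position of the whole probe as the array files give it. The second Plxnb1 probe is included because it repeats the measurement at another place in the same transcript.
Ephb3, chr16:21223025-21223084, plus strand: ggagatatggtgccccatcctgaagccagc
Plxnb1, chr9:109021421-109021480, plus strand: ttgccattcatgttccatgaatttttaaaa
Plxnb1, second probe, chr9:109021856-109021915, plus strand: tcttcaagatcgcaggagccattttggttt
Plxnb3, chrX:71017572-71017631, plus strand: aaagtgactgacctgtgaactagggccaca
Efnb3, chr11:69367911-69367970, minus strand: actggtctagctgatggcagttattagcac
Whether these bases are coding or untranslated was not determined.

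Some guidance genes also hold microRNA genes, whose products Dicer cuts. In RefSeq (GRCm38.p6), where all 71 members were found, 9 members hold 9 microRNA genes within their span: Slit2, Slit3, Robo2, Epha4, Ephb1, Sema4a, Nrp1, Ntn1 and Plxnb2. Mir218-1 within Slit2 and Mir218-2 within Slit3 give the same mature miR-218-5p, printed here once with its seed (bases 2 to 8) in capitals because 2 ligand genes of 1 class share it. It is encoded at chr5:48223966-48223986 and at chr11:35616840-35616860, both on the plus strand.
miR-218-5p: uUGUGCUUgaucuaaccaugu
The array measured host transcripts and not mature microRNAs, and Robo1, a published target of miR-218, is described with the Robo genes.

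Between 26291 and 28907 of 41174 probes per array and channel were well above background, 0 spots were saturated and 143 to 248 spots per array were left out as outliers. The log2 ratio of Dicer1, the targeted gene, was 0.26, -0.27, 0.07 and 0.10 in pairs 1 to 4, a mean of 0.04 ± 0.22 (adjusted p = 0.947, limma). The position of its probe relative to the floxed exon was not determined and other cells of the cerebellum keep Dicer, so this value does not check the labels. Of 12 markers of astroglia, the cells targeted by the transgene, 2 were called higher (Gfap and Aldh1l1) and 4 lower (Aqp4, S100b, Slc1a2 and Ndrg2). Over all genes tested 1.03% were called in either direction. Of the 12 markers 9 had a ratio below 0, with a median of -0.42. An unadjusted p under 0.05 was found for 10 of them, against 9.39% of all genes. All 11 granule neuron and all 11 Purkinje neuron markers were above background on all 4 arrays in both genotypes, as the label cerebellum requires. Of 12 forebrain and brainstem markers, 2 were above background on all arrays in both genotypes and 5 on none.

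Semaphorins, the largest ligand class, stayed near a ratio of 0. Of 20 by name 18 were tested, 7 had a mean ratio above 0, 0 were called and the median ratio was -0.018. Their medians in the 4 pairs were 0.02, -0.02, -0.01 and -0.04. The mean ratios ran from -0.10 ± 0.24 for Sema6c, a transmembrane class 6 semaphorin, to 0.14 ± 0.42 for Sema6d of the same class. Sema3a, the secreted ligand of neuropilin 1 that repels many axons, had ratios of 0.10, -0.01, 0.09 and -0.25, on both sides of 0. Sema3e, the secreted ligand of Plxnd1, had a mean of -0.01 ± 0.14 and Sema7a, a membrane-anchored semaphorin that signals through integrins and plexin C1, of -0.08 ± 0.12. Sema5b was the one semaphorin with the same direction in all 4 pairs, at 0.01, 0.01, 0.01 and 0.07. Its other 2 tested probes gave -0.15 ± 0.14 and -0.03 ± 0.25, and 0.18 between probes was the largest such difference of any member.

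In 6 of the 18 tested semaphorins the sign of the ratio alternated with the dye order. Sema6d and Sema6b had the largest dye terms of these. Sema6d read 0.51 and 0.48 in pairs 1 and 3, where the mutant was labelled with Cy5, and -0.16 and -0.28 in pairs 2 and 4, where it was labelled with Cy3. Sema6b, a transmembrane semaphorin that binds A-type plexins, showed the opposite order, -0.41 and -0.40 against 0.18 and 0.33. That the groups of same-dye pairs did not overlap in either gene follows from these signs and adds nothing to them. The fit separates this as a dye term, log2 of Cy5 over Cy3 whatever the genotype, of 0.36 for Sema6d and -0.33 for Sema6b, while the genotype terms were 0.14 (95% interval -0.01 to 0.29) and -0.07 (-0.23 to 0.08). Neither dye term passed adjustment (adjusted p = 0.547 for both, limma). Such an order of signs was no more common among all members, 8 of 63, than the 18.2% of all genes tested. However, 6 of those 8 were among the 18 tested semaphorins. Of the 8, Sema3a, Sema4d and Plxna4 have a second tested probe, whose signs did not follow the dye order in any of the 3.

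The base make-up of the probes moved with the dye term. Across the 18025 genes tested the dye term had a Pearson r of -0.19 with the number of G bases in the probe and 0.19 with the number of T bases, as a description over genes that share the same arrays. Over the 63 members these were -0.17 and 0.11. The numbers of C and A bases had an r of -0.12 and 0.064 over all genes. Over the members these were -0.19 and 0.20, larger in size than for G and T. The Sema6b probe has 26 G in 60 bases and the Sema6d probe 12. Their first 30 bases, with G in capitals, show the runs of G in the first.
Sema6b, chr17:56262698-56262757 in mm9, minus strand: acctGGGGGtccaGGctGGGaGatGGGGGa
Sema6d, chr2:124493141-124493200 in mm9, plus strand: tattaatcccaGcGtGGtaactctGtGtGa
The part of base make-up in these ratios was not tested.

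**Figure D2:**
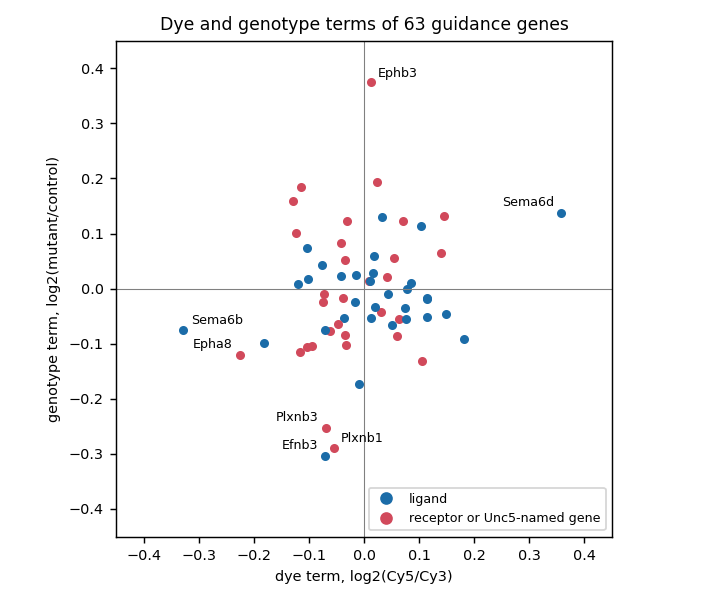
Genotype term (vertical axis, log2 of mutant over control) against dye term (horizontal axis, log2 of Cy5 over Cy3) of the 63 tested guidance genes, with ligands in blue and receptors and Unc5-named genes in red. Sema6d (0.36) and Sema6b (-0.33) lie at the ends of the dye axis near the middle of the genotype axis, while Ephb3, Plxnb1, Plxnb3 and Efnb3 lie at the ends of the genotype axis with dye terms near 0.

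Among the receptors of semaphorins, 2 B-type plexins had the lowest ratios. All 11 plexins and neuropilins were tested, 5 had a ratio above 0, 0 were called and the median was -0.010. Plxnb1, a receptor for Sema4d, had log2 intensities of 10.46, 10.29, 10.16 and 10.26 in the mutant and 10.73, 10.54, 10.58 and 10.47 in the control. Every mutant value was below every control value of this probe, but the nearest, 10.46 and 10.47, came from different arrays and almost met. How many of all genes separate in this way was not determined. The ratios were -0.27, -0.25, -0.41 and -0.21, a mean of -0.29 ± 0.09 (95% interval -0.44 to -0.14), which missed the threshold (adjusted p = 0.157, limma; 0.121 to 0.917 over the alternative settings). The second Plxnb1 probe gave -0.47, -0.45, -0.66 and -0.09, a mean of -0.42 ± 0.24, in the same direction in all 4 pairs.

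Plxnb3, a B-type plexin made by oligodendrocytes and a receptor for Sema5a, had log2 intensities of 10.34, 10.56, 10.18 and 10.48 in the mutant and 10.54, 10.67, 10.63 and 10.73 in the control. Each mutant lay below its littermate, and the highest mutant value lay above the lowest control value. The ratios were -0.20, -0.11, -0.45 and -0.26, a mean of -0.25 ± 0.14 (adjusted p = 0.316, limma). Plxnb2, the remaining B-type plexin, had a mean of -0.10 ± 0.16 with 3 of 4 pairs below 0. Their ligands in the same RNA read -0.04 ± 0.10 for Sema4d and 0.07 ± 0.14 for Sema5a.

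The A-type plexins, which pair with neuropilins, stayed nearer to 0, between -0.01 ± 0.18 for Plxna3 and 0.12 ± 0.12 for Plxna2. Plxna1 and Plxna4 had means of 0.01 ± 0.05 and 0.02 ± 0.05, among the narrowest spreads in the class. Nrp1, the co-receptor for Sema3a, had a mean of -0.04 ± 0.06. Nrp2, the co-receptor for Sema3f, had the highest ratio of the class, 0.16 ± 0.20, with pairs at -0.10, 0.39, 0.16 and 0.18. Plxnd1, found on endothelial cells and on some neurons, read 0.01, -0.28, -0.29 and 0.25 and so had no shared direction. Plxnc1 read 0.14, 0.26 and 0.42 in pairs 1 to 3 and -0.29 in pair 4.

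**Figure D3:**
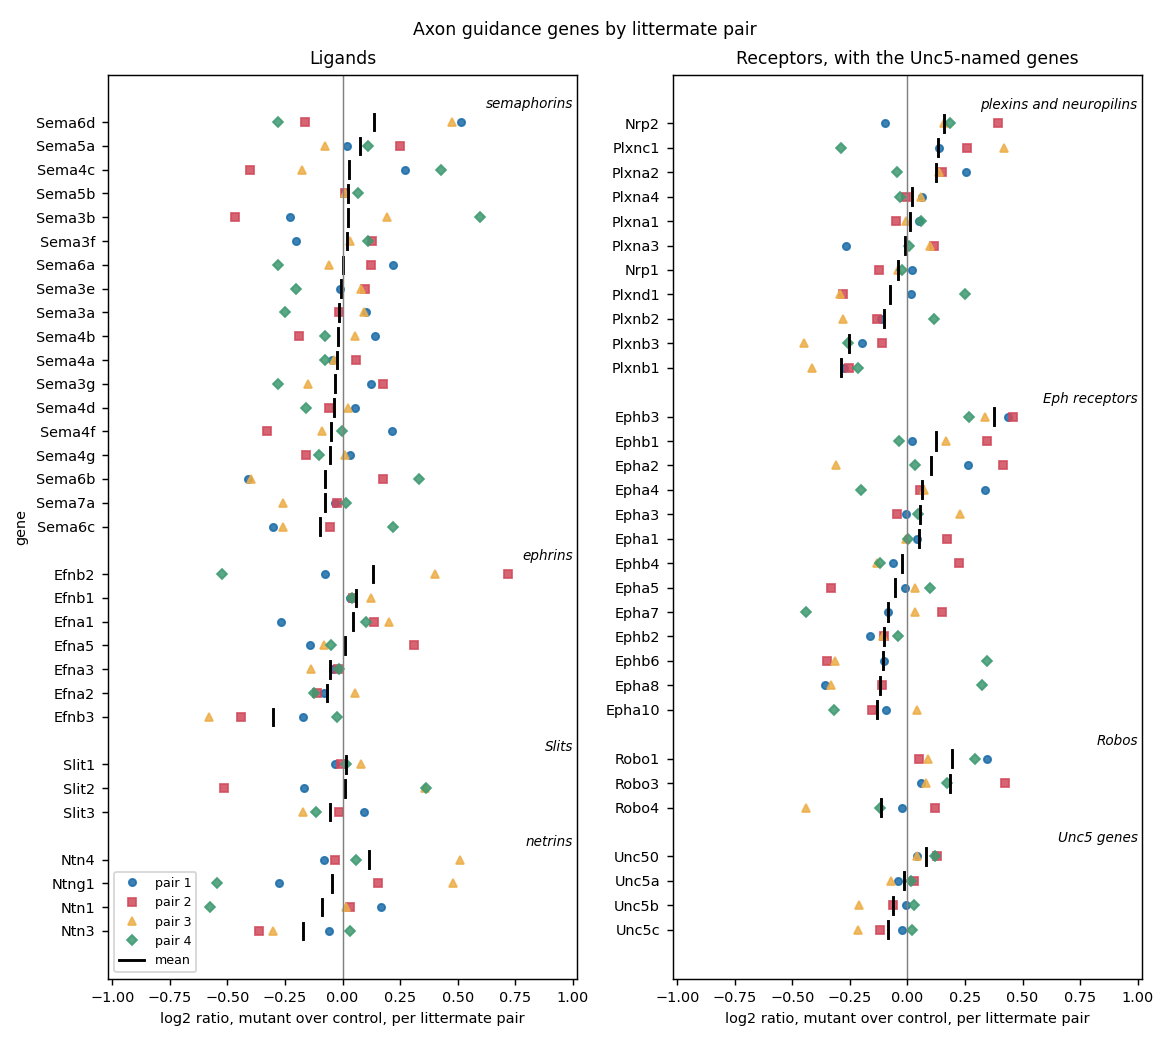
Log2 ratio of mutant over control (horizontal axis) in each of the 4 littermate pairs, 1 row per tested guidance gene grouped by class, ligands on the left and receptors with the Unc5-named genes on the right. Coloured symbols are pairs 1 to 4 and black ticks are their means; the symbols of Ephb3 all lie above 0, those of Plxnb1, Plxnb3 and Efnb3 all below 0, and those of Efnb2 run from -0.52 to 0.72.

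Of 8 ephrins by name 7 were tested, 4 had a ratio above 0, 0 were called and the median was 0.0090. Efnb3, a transmembrane ephrin that acts as a midline barrier to corticospinal axons, had log2 intensities of 12.08, 11.80, 11.53 and 12.04 in the mutant and 12.25, 12.24, 12.10 and 12.07 in the control. The ratios were -0.17, -0.44, -0.58 and -0.02, so each mutant lay below its littermate but the 2 values of pair 4 nearly met. The mean of -0.30 ± 0.25 missed the threshold (adjusted p = 0.450, limma). Leaving out pair 2 or pair 3 gave -0.20, and leaving out pair 1 or pair 4 gave -0.41. Efnb2, a transmembrane ephrin known for its part in arteries and at synapses, read -0.07, 0.72, 0.40 and -0.52. Its SD of 0.54 exceeded its mean of 0.13, and without pair 2 the mean was -0.18. Efnb1 was close to 0 and above it in every pair, at 0.03, 0.04, 0.12 and 0.04. The glycolipid-anchored A-type ephrins ran from -0.07 ± 0.08 for Efna2 to 0.04 ± 0.21 for Efna1, with Efna3 at -0.05 ± 0.06 and Efna5 at 0.01 ± 0.20.

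Ephb3 had the highest ratio of all 63 members, although Efnb2 was higher when pair 4 was left out. It is a receptor tyrosine kinase for B-type ephrins, and its log2 intensities were 9.28, 9.18, 8.98 and 8.88 in the mutant and 8.84, 8.72, 8.64 and 8.61 in the control. Every mutant value was above every control value of this probe, with the nearest, 8.88 and 8.84, from different arrays. How many of all genes separate in this way was not determined. The ratios were 0.44, 0.46, 0.34 and 0.27, a mean of 0.38 ± 0.09, or 1.30-fold (95% interval 0.21 to 0.54 in log2). The test missed the threshold (adjusted p = 0.102, limma), and in the 15 alternative settings the mean lay between 0.31 and 0.43 with an adjusted p of 0.0524 to 0.594. The dye term of Ephb3 was 0.01.

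None of the other tested Eph receptors had an unadjusted p under 0.05. Of 14 by name 13 were tested, 6 had a ratio above 0, 0 were called and the median was -0.024. Among those that also bind B-type ephrins, Ephb1 had a mean of 0.12 ± 0.17, Ephb2 of -0.10 ± 0.05 and Ephb4, best known in veins, of -0.02 ± 0.17. Ephb2 was below 0 in every pair, at -0.16, -0.10, -0.11 and -0.04, but its second probe read 0.26 in pair 4, with a mean of -0.02 ± 0.19. Ephb6, which lacks kinase activity, read -0.10, -0.35, -0.32 and 0.35. Epha4, a receptor for both ephrin types that is made by neurons and astrocytes, read 0.34, 0.05, 0.07 and -0.20, a mean of 0.06 ± 0.22. The lowest ratio of the class was that of Epha10, which lacks kinase activity too, at -0.13 ± 0.15. Epha8 had a mean of -0.12 ± 0.32 with a dye term of -0.23, and Epha7 of -0.09 ± 0.26 with its lowest value, -0.44, in pair 4; the second Epha7 probe had a mean of 0.06 ± 0.30.

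**Figure D4:**
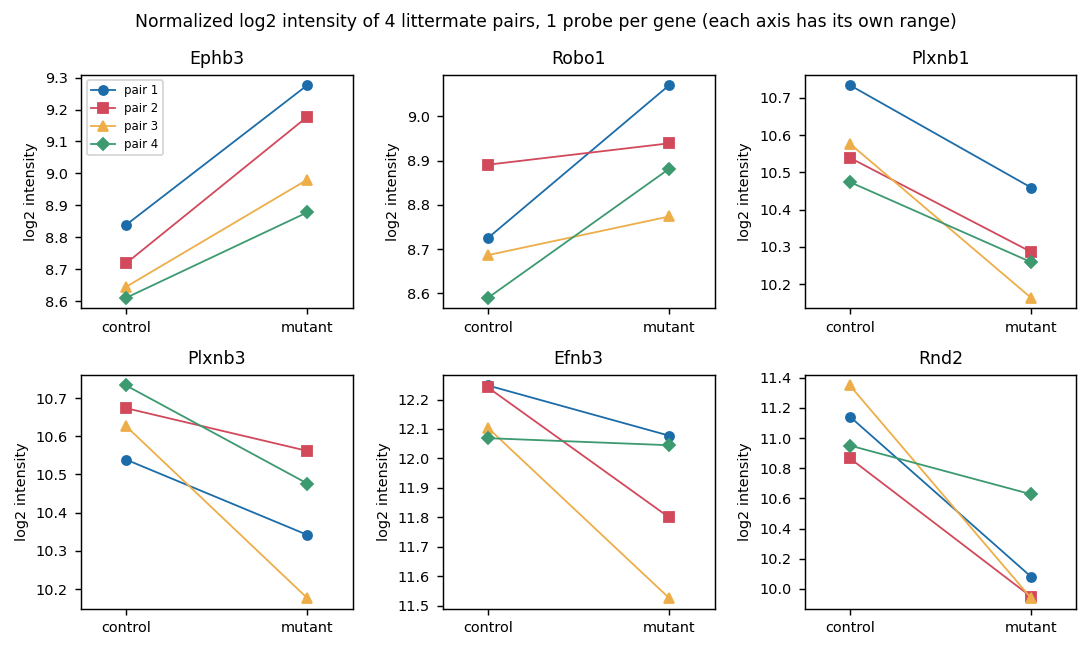
Normalized log2 intensity (vertical axis, with its own range in each panel) of the control and the mutant of each littermate pair, joined by a line, for 1 probe each of Ephb3, Robo1, Plxnb1, Plxnb3, Efnb3 and Rnd2. The lines of Ephb3 and Robo1 go up in 4 of 4 pairs and those of the other genes down in 4 of 4; of these only Rnd2, a gene downstream of the receptors, was called (adjusted p = 0.0420, limma).

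The Slits showed no shared direction, while 2 of the 3 tested Robo genes were higher in every mutant without passing the test. Slit1, made by neurons, was the steadiest, with ratios of -0.03, -0.01, 0.08 and 0.01 and an interval of -0.13 to 0.16. Its probe was also the dimmest of the class, at a mean log2 intensity of 7.18 in the mutant and 7.17 in the control. The offset draws the ratios of dim probes toward 0. Slit3 had a mean of -0.05 ± 0.12. Slit2 read -0.17, -0.52, 0.36 and 0.36, a mean of 0.01 ± 0.43. Its second probe read 0.06, -0.04, 0.38 and -0.10, a mean of 0.08 ± 0.22, so the probes differed in sign in pairs 1 and 4. By the brighter probe the host transcripts of miR-218 had mean ratios of 0.01 and -0.05.

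Robo1, a main Slit receptor, had log2 intensities of 9.07, 8.94, 8.77 and 8.88 in the mutant and 8.73, 8.89, 8.69 and 8.59 in the control, with overlap between the groups. The ratios were 0.35, 0.05, 0.09 and 0.29, a mean of 0.19 ± 0.15 (adjusted p = 0.542, limma). Robo3, the receptor that lets hindbrain axons cross the midline, read 0.06, 0.42, 0.08 and 0.17, a mean of 0.18 ± 0.17 (adjusted p = 0.494), and its second probe 0.08 ± 0.04 with 4 of 4 pairs above 0. Robo4, the endothelial member, had a mean of -0.12 ± 0.24. Robo2 was not well above background on any array in any of its 4 probes. The median over the 3 tested Robo genes was 0.18, with pair medians of 0.06, 0.12, 0.08 and 0.17; the class is too small for the median to describe more than Robo1 and Robo3.

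Netrins varied more between pairs than the other classes, with a median SD over pairs of 0.30. Of 5 by name 4 were tested, 1 had a ratio above 0 and 0 were called. Ntn1, the secreted founding member, read 0.17, 0.03, 0.02 and -0.58, so its mean of -0.09 ± 0.33 rested on pair 4. Ntng1, a membrane-anchored netrin-like ligand of axons, read -0.27, 0.16, 0.48 and -0.55. Ntn4, a basement membrane netrin, had the highest ratio of the class, 0.11 ± 0.27, and Ntn3, listed in the files under its older name Ntn2l, the lowest, -0.17 ± 0.19. Dcc, a receptor for Ntn1 that the name rule does not take in, had a ratio of 0.06 (adjusted p = 0.916, limma).

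The Unc5 receptors were close to 0. Unc5a, Unc5b and Unc5c, which turn the response to netrin into repulsion, had means of -0.02 ± 0.05, -0.06 ± 0.11 and -0.08 ± 0.10. Unc5c is needed for granule and Purkinje cells to stop at the rostral border of the cerebellum. Unc50, which the rule takes in by name but which is no netrin receptor, had a mean of 0.08 ± 0.05, above 0 in every pair. Of the 8 members that failed the background filter, Sema3c, Sema3d, Efna4, Epha6, Robo2, Ntng2 and Unc5d are guidance genes and Unc5cl is not a netrin receptor; no ratio is given for them, and a probe below background does not show that a gene is silent.

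Some members that varied between pairs had markers of other cell types vary beside them. Sema3b and the brighter Slit2 probe both had ratios below 0 in pairs 1 and 2 and above 0 in pairs 3 and 4. Sema3b, a secreted semaphorin, read -0.23, -0.47, 0.19 and 0.60. The median ratio of the 6 choroid plexus markers tested of 7 listed (Ttr, Folr1, Kl, Clic6, Aqp1 and Otx2) was 0.10, -0.56, 0.38 and 0.58 in the same pairs. The list and these probes were thus lowest in pair 2 and above 0 in pairs 3 and 4, while in pair 1 the list was above 0 and both probes below it. The second Slit2 probe did not share this order: it was lowest in pair 4 (-0.10), where the list was highest. Over the 4 pairs 6 of 6 of these markers had a mean above 0, from 0.08 to 0.17, against 50.9% of all genes tested. None was called, and all 6 were above background on all arrays in both genotypes. The part of choroid plexus tissue in these ratios was not tested.

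Efnb3 and the B-type plexins were lowest in the pair in which oligodendrocyte markers were lowest. Of 12 oligodendrocyte markers 11 had a mean ratio below 0, with a range of -0.40 to 0.21 and 0 called, while 50.9% of all genes tested were above 0. The median of the markers was -0.18, -0.20, -0.58 and 0.01 in pairs 1 to 4. Efnb3 had its lowest ratio in pair 3 and its highest in pair 4, as the list did. Plxnb1 and Plxnb3 were also lowest in pair 3, but in pair 4, where the list stood at 0.01, they read -0.21 and -0.26. Other lists also had their lowest median in pair 3, among them endothelium and mural cells (-0.20) and oligodendrocyte precursors (-0.19). The astroglia medians were -0.31, -0.59, -0.22 and -0.38 in pairs 1 to 4, so highest in pair 3. The share of all genes lowest in pair 3 was not determined. In bulk RNA fewer cells of a type and less RNA per cell cannot be told apart. The part of oligodendrocytes in the ratios of Efnb3 and the B-type plexins was not tested.

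**Figure D5:**
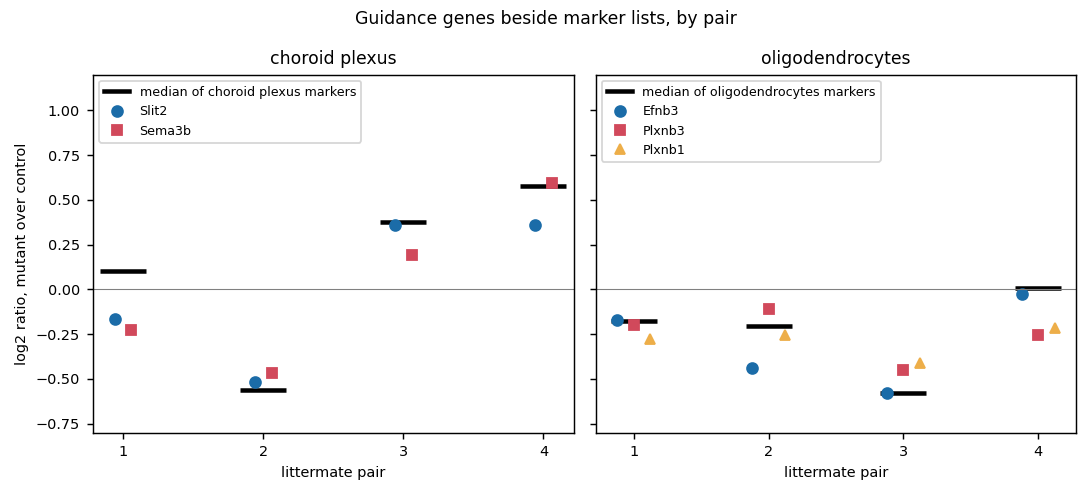
Log2 ratio of mutant over control (vertical axis) in each littermate pair (horizontal axis), with guidance genes as coloured symbols and the median of a marker list as a black bar: Slit2 (brighter probe) and Sema3b beside 6 choroid plexus markers on the left, Efnb3, Plxnb3 and Plxnb1 beside 12 oligodendrocyte markers on the right. The choroid plexus bar and both symbols are below 0 in pair 2 and above 0 in pairs 3 and 4, though the second Slit2 probe, not drawn, read -0.10 in pair 4. The oligodendrocyte bar is lowest in pair 3, as are the 3 genes drawn beside it and the medians of some lists not drawn.

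The vascular and neuronal lists moved less. All 14 markers of endothelium and mural cells had a ratio below 0, with a median of -0.08 and 0 called. Beside them Robo4 stood at -0.12, Plxnd1 at -0.08 and Ephb4 at -0.02. Over all genes tested 50.9% of ratios were above 0. Of 9 oligodendrocyte precursor markers 7 were below 0 (median -0.12, 0 called), and 4 had an unadjusted p under 0.05. Of 11 markers of meninges and fibroblasts 9 were above 0 (median 0.13, 0 called), and 3 had such a p. The share at such a p over all genes tested was 9.39%. The granule neuron and Purkinje neuron medians were 0.01 and -0.01 over the pairs, and both were lowest in pair 4, at -0.12 and -0.15. Pair 4 also held the lowest ratios of Ntn1, Ntng1, Efnb2 and both Epha7 probes. Other members had their highest ratio in pair 4, among them Sema3b (0.60), Sema4c (0.43) and Ephb6 (0.35). The share of all genes lowest in pair 4 was not determined, and the part of neurons in these ratios was not tested.

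Of the genes that act with or after the receptors, 1 was called. The downstream list (59 genes, all tested) had 0 called higher, 1 called lower and 7 at an unadjusted p under 0.05, with a median ratio of -0.0023. Over all genes tested, 0.588% were called higher, 0.444% were called lower and 9.39% had such a p. A single call is too few to describe the pathway. The called gene was Rnd2, expressed in neurons and from a family whose members bind plexins. Its log2 intensities were 10.08, 9.95, 9.94 and 10.63 in the mutant and 11.14, 10.87, 11.35 and 10.95 in the control, with no overlap. The share of all genes without overlap was not determined. The ratios were -1.06, -0.92, -1.41 and -0.32, a mean of -0.93 ± 0.45 (adjusted p = 0.0420, limma). They were lowest in pairs 1 and 3, where the mutant was in Cy5, and the dye term was -0.31 (adjusted p = 0.553, limma). The call was lost in 7 of 15 alternative settings, with an adjusted p of 0.0532 to 0.190, including without replicate 1 (0.0960) and without replicate 3 (0.123). The mean stayed between -1.08 and -0.78.

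No other gene of the pathway lists passed the test. Mical1, an oxidoreductase that takes apart actin downstream of plexins, read 0.26, 0.65, 0.41 and 0.44, a mean of 0.44 ± 0.16 (adjusted p = 0.0723, limma). Dpysl3, a collapsin response mediator protein of growing neurites, read 0.50, 0.47, 0.23 and 0.55, a mean of 0.44 ± 0.14 (adjusted p = 0.0824). Both were above 0 in 4 of 4 pairs. Of 33 coreceptor and adhesion genes 31 were tested and 0 called in either direction, with 3 at an unadjusted p under 0.05 and a median of -0.022. Rgma, a repulsive cue that binds neogenin, had the highest ratio there, 0.30 ± 0.12 (adjusted p = 0.215). Of 9 genes of myelin-borne repulsion 8 were tested and 0 called, with 2 at an unadjusted p under 0.05, 6 ratios below 0 and a median of -0.10. The share at such a p over all genes tested was 9.39%.

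Of the genes with ratios above, those that are neither called, nor an end of their class, nor above 0.3 in size with 1 direction in all pairs were named after their values were seen. A second probe was tested for 19 members. Of the 21 further probes 12 had the sign of the probe that stood for the gene, and the median difference between the 2 was 0.09. With 4 pairs and 2 residual degrees of freedom the median half-width of a member's 95% interval was 0.18.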

How the data were processed

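Each array file holds the authors' Agilent Feature Extraction output (version 10.5.1.1, per the file headers): a mean intensity and a median local background intensity per spot and dye, not yet normalized, with outlier and background flags. Probe positions are in mm9, per the file headers. The deposited log10 ratio of Cy5 over Cy3 and the series' deposited value table, a log10 ratio that differs from the former by at most 4.84e-06 once turned for the dye order, were used only as alternatives. All 4 arrays lie on 1 slide, per the files' shared slide code.

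Background was corrected with limma 3.58.1 (normexp, offset 50, flagged spots left out of its fit) in R 4.3.3, then dyes were balanced by a loess curve per array in which control spots had weight 0. Flagged spots were dropped, spots of a probe averaged, and the brightest probe that passed the filter kept for a gene. Symbols came from RefSeq (GRCm38.p6) by accession for 24844 probes and from the files for 16330; 28 genes lacked 1 array, none of them a member. Log2 of Cy5 over Cy3 was fitted by genotype (signed by the mutant's dye) and by dye over all 18025 genes (lmFit, eBayes), so each array is a littermate pair, and Benjamini-Hochberg adjustment ran over all of them. The same-array channels deviated together (correlation 0.394 to 0.704, against at most 0.317 between arrays). Named were members called, those at least 0.3 in size with 1 direction in all pairs, those whose probes disagreed in sign at that size, the ends of each class, up to 3 called pathway genes and Dicer1. The gene families and lists were chosen with earlier results of these data known; within a family, members were taken by name alone. Array number, 4, limits the precision.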

Additional observations from a re-analysis of the deposited data

How the results depend on the processing

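The 63 tested guidance genes had 0 calls higher and 0 lower in the 15 alternatives: other background, normalization, filter and variance choices, and each replicate left out in turn. Members at an unadjusted p under 0.05 ranged from 2 to 12. Without the replicate block, with the 8 channels fitted unpaired, the counts were 0 higher and 0 lower, and 1 downstream gene was called lower. The downstream count called lower was 0 in place of 1 with outlier flags applied after the background fit, without background subtraction, with the scanner software's processed signals, with the series' value table and with median centring. It ranged from 0 to 1 when a replicate was left out, with 0 for replicates 1 and 3. The downstream count called higher was 1 without the dye term (Dpysl3, adjusted p = 0.0438, limma) and ranged from 0 to 1 with a replicate left out (Mical1 without replicate 4, 0.0417). Over all genes tested, 106 higher and 80 lower became 50 and 32 with flags after the background fit, 88 and 53 with processed signals, and 87 and 49 with the value table. Leaving out a replicate gave 41 and 11 (replicate 1), 139 and 127 (replicate 2), 63 and 32 (replicate 3) or 216 and 121 (replicate 4). The class median of plexins and neuropilins moved from -0.010 to 0.057 with flags after the background fit, that of Eph receptors from -0.024 to -0.073 with processed signals or the value table, and that of Robos from 0.18 to 0.13 with the mean over probes. With a replicate left out the medians ranged from -0.069 to 0.051 for ephrins, -0.042 to 0.061 for Eph receptors and 0.12 to 0.18 for Robos. Slit1 turned to -0.014 without background subtraction and -0.037 with processed signals or the value table, and ranged from -0.014 to 0.043 with a replicate left out. Dicer1 turned to -0.013 with the mean over probes and ranged from -0.054 to 0.13. With a replicate left out Efnb2 ranged from -0.18 to 0.44, Slit3 from -0.12 to 0.013 and Ntn4 from -0.034 to 0.26. The causes of these changes were not tested. Signal over background left 8 members without a ratio.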
